A study of Mus musculus with 4 samples.

Results

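The E2F transcription factors and the RB pocket proteins were examined as 1 gene family in differentiating mouse erythroid cultures. The family was taken as 10 genes, E2f1, E2f2, E2f3, E2f4, E2f6, E2f7, E2f8, Rb1, Rbl1 and Rbl2. A feature of the array, that is a set of probes for 1 transcript, counted for a gene when the annotation gave it that gene and no other. All 10 genes had such a feature, and E2f3 had 2, which makes 11 features of the 28944 tested and 10 of the 19938 genes that had a feature of their own.

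RNA was measured on 4 single-colour Affymetrix Mouse Gene 1.0 ST arrays, 2 of MEL and 2 of ES-EP cells, lettered A and B within each line. MEL is a mouse erythroleukemia line, here grown in DMEM with fetal serum, glutamine and puromycin and kept for 48 hours with 17b-estradiol to differentiate. The ES-EP line consists of erythroid progenitors derived from embryonic stem cells, expanded in StemPro34 medium with erythropoietin, IGF-1, dexamethasone, stem cell factor and b-mercaptoethanol. They were set to differentiate for 24 hours in that medium with more erythropoietin, insulin, mifepristone and b-mercaptoethanol, without the other factors. All 4 samples were labelled as differentiating, and undifferentiated cultures were not analysed here. The labels name no allele or transgene, and do not say whether a line was 1 clone. Line, inducer, medium and hours changed together between the groups, so their effects cannot be told apart. Nothing in the labels says that duplicates A and B were separate cultures or were started independently. Below, culture A or B means the sample with that letter. P-values then cover only the spread between these arrays, which may be technical.

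E2F factors bind DNA together with a DP partner and govern the genes that carry a cell through S phase. E2f1, E2f2 and E2f3 are known chiefly as activators, E2f4 as a repressor that works through pocket proteins, E2f6 as a repressor that recruits polycomb complexes without a pocket protein, and E2f7 and E2f8 as atypical repressors that bind without a DP partner. The pocket proteins RB, p107 and p130, encoded by Rb1, Rbl1 and Rbl2, hold E2F factors in check until cyclin-dependent kinases phosphorylate them. With the MuvB proteins, p107 or p130 and E2f4 form the DREAM complex, which silences cell cycle genes in resting cells, and MuvB later joins B-Myb and FoxM1 to switch on genes of G2 and mitosis. In mouse red cell precursors the pathway is known for its part in the exit from division: Rb1, E2f2, E2f4 and E2f8 all have described roles in terminal erythroid maturation.

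Several members of the family are themselves known targets of E2F, so their promoters were searched for the letters that E2F factors are known to prefer. The promoter windows, from 250 bases before to 50 bases after a gene's start, come from RefSeq on build GRCm38.p6, and 8 of the 10 members had at least 1 there, in 10 windows. E2f4 and Rb1 had none. The E2F letters searched on both strands were TTTCCCGC, TTTCGCGC, TTTGCCGC and TTTGGCGC, and the letters of the cell cycle homology region (CHR), to which MuvB binds, were TTTGAA. The E2F and CHR matches in the member windows did not overlap. The 5 windows below are the 4 that hold E2F letters and that of E2f8, which has CHR letters close to the start. Each is written 5′ to 3′ along its gene, with the matching letters in capitals. The E2f2 window lies at chr4:136172024-136172323 on the plus strand, E2f3 at chr13:29986014-29986313 on the minus strand and Rbl1 at chr2:157204485-157204784 on the minus strand. E2f7 lies at chr10:110745189-110745488 on the plus strand and E2f8 at chr7:48881547-48881846 on the minus strand.
E2f2: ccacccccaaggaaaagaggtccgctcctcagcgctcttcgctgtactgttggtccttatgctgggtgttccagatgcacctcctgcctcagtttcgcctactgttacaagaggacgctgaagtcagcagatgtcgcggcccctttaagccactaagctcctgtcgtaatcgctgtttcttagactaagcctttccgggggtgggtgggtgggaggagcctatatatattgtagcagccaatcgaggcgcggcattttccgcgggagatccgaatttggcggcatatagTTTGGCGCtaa
E2f3: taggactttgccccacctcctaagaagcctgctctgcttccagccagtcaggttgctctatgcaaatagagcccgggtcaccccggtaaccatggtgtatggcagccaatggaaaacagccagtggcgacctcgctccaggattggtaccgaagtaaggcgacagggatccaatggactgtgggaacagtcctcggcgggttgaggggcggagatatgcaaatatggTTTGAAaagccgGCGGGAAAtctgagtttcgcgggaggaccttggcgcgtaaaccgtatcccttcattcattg
E2f7: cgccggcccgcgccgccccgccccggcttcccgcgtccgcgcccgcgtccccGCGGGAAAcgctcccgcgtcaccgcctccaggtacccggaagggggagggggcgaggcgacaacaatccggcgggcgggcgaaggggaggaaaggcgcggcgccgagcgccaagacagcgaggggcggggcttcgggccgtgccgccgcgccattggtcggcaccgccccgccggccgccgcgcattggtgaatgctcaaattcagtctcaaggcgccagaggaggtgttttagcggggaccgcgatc
E2f8: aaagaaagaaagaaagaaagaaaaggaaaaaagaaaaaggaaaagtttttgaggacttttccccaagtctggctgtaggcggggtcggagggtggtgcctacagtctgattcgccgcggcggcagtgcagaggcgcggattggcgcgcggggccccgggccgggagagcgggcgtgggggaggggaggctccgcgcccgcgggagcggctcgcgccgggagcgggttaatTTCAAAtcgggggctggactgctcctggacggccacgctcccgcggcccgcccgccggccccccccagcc
Rbl1: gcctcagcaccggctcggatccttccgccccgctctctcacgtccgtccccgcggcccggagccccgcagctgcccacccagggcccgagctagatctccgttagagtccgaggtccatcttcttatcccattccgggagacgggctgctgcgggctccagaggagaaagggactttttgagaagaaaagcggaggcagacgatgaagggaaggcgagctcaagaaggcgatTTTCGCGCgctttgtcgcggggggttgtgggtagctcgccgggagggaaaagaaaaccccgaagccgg

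In E2f2 the capitals mark TTTGGCGC at bases 40 to 47 counted from the start. E2f3 holds CHR letters at -23 to -18, followed at -11 to -4 by GCGGGAAA, which is TTTCCCGC read on the other strand. E2f7 has the same 8 letters far upstream, at -198 to -191. Rbl1 has TTTCGCGC at -18 to -11, and E2f8 has TTCAAA, the CHR letters on the other strand, at -20 to -15. Outside the printed windows, a second E2f2 window at chr4:136180532-136180831 and the Rbl2 window also hold CHR letters. The windows of E2f1 and E2f6 and the other E2f3 window held neither kind of letter. Windows follow the RefSeq starts, and whether these cells use those starts was not tested. Of the 10 member windows 40% held E2F letters and 40% CHR letters, against 2.26% and 17.9% of all 32851 windows. A match only says that the letters are there and does not show that a factor binds.

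Most of the family was lower in MEL cultures. Of the 10 genes, 7 passed as lower in MEL (limma, Benjamini-Hochberg over all features, adjusted p under 0.05), 0 passed as higher, and 3 did not pass. By the same test 36.9% of all genes were lower and 21.8% higher, so lower genes were also common outside the family. With a difference of at least 2-fold added, 3 members were lower, E2f2, E2f4 and E2f8, and 0 higher, where 4.93% of all genes were lower and 7.38% higher. Both MEL values lay below both ES-EP values in 8 of the 10 genes and above both in the other 2, E2f6 and E2f7, against 51.5% and 28.7% of all genes. The median difference of the members was -0.58 on the log2 scale. That of all genes was -0.14, which leaves -0.44 relative to all genes. These all-gene values depended on dim features. Without features under the median signal, 10646 genes remained, all 10 members among them. Of those genes 34.7% were higher and 37.1% lower, 11.9% and 7.43% by at least 2-fold, with a median of -0.046.

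The arrays of a line were close, with r = 0.997 between the MEL arrays, 0.998 between the ES-EP arrays and about 0.948 between lines, across features that are not independent. The values are RMA values on a log2 scale, and RMA draws arrays towards a common distribution. Medians of the tested features still differed, at 5.89 and 5.78 in MEL and 5.91 and 5.89 in ES-EP. Such values cannot show whether RNA content per cell changed. In such bulk RNA, fewer cells of a type and less RNA per cell cannot be told apart. The all-gene shift depended on scaling, with -0.14 as deposited, -0.02 once the values were quantile normalized again, -0.07 when arrays were centred and 0.02 under cyclic loess. Genes called higher and lower then made up 26.7% and 28.6% (quantile), 23% and 28.8% (centring), and 29% and 24.5% (loess). The fit after centring had a prior without limit, so its shares and calls are less sure. No member changed direction under any of these, and the members at least 2-fold lower became 1, E2f2, under quantile normalization and cyclic loess. Every feature of the family lay above its array's median on all 4 arrays. In all 11 features MEL culture B lay above MEL culture A, by 0.031 to 0.23, a gap that was not tested.

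**Figure D1:**
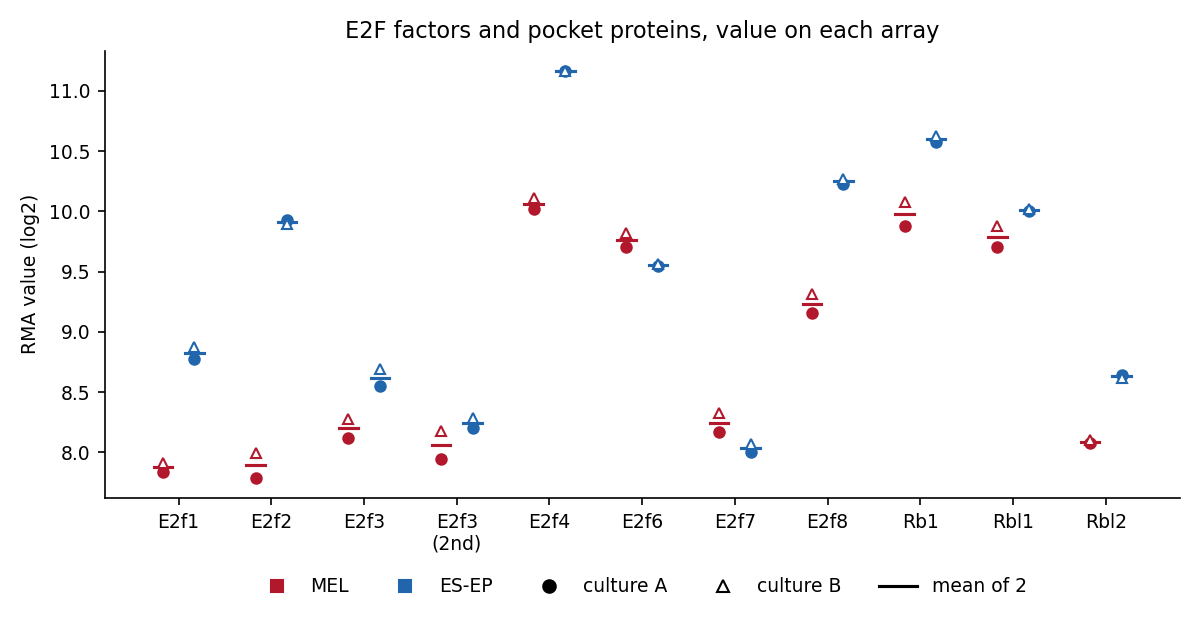
RMA values (log2, vertical axis) of the 11 features of the 10 members on each of the 4 arrays, with MEL in red left of ES-EP in blue, culture A as a filled circle, culture B as an open triangle and the mean of the 2 as a bar. E2f2 shows the widest gap, with MEL at 7.79 and 7.99 and ES-EP at 9.93 and 9.90, while E2f6 and E2f7 are the members whose MEL values lie above those of ES-EP.

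E2f2 had the largest difference of the family. Its feature (10509168) read 7.79 and 7.99 in the MEL cultures, against 9.93 and 9.90 in the ES-EP cultures, on the log2 scale. The MEL values lay together and well apart from those of ES-EP. The means were 7.89 ± 0.14 in MEL and 9.91 ± 0.025 in ES-EP (SD, n = 2 each), a difference of -2.02 ± 0.097 (SE), 4.06-fold lower in MEL (limma, adjusted p = 3.82e-06). The 95% interval ran from -2.25 to -1.79. Ordered from the largest fall, E2f2 was number 205 of the 19938 genes. E2f2 is an activator E2F, and in mouse erythroblasts it is known to be among the abundant E2F factors.

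E2f1, the activator whose loss or excess is best known for altering both S phase entry and cell death, also fell. It read 7.84 and 7.91 in MEL cultures, against 8.78 and 8.87 in ES-EP cultures, with no overlap. The fall of E2f1 was 0.95 ± 0.086 on the log2 scale (SE, 95% interval of the difference -1.15 to -0.75), or 1.93-fold (limma, adjusted p = 8.91e-05). E2f3 is the remaining activator. Its brighter feature read 8.12 and 8.28 in MEL, against 8.55 and 8.69 in ES-EP, a difference of -0.42 ± 0.097 (limma, adjusted p = 0.00830), or 1.34-fold lower. Its other feature read 7.94 and 8.18 in MEL, against 8.21 and 8.29 in ES-EP, and its difference of -0.19 (95% interval -0.43 to 0.056) did not pass (limma, adjusted p = 0.160). Both features had MEL below ES-EP, but the call of E2f3 rests on the brighter one and on ES-EP culture B. Without that culture the difference was -0.35 and the call was lost.

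E2f4, the pocket-protein-dependent repressor and the member of DREAM, was lower in MEL. It read 10.02 and 10.11 in MEL cultures, against 11.16 and 11.16 in ES-EP cultures, so that the ES-EP duplicates nearly coincided. The difference was -1.10 ± 0.084 (SE, 95% interval -1.30 to -0.90), which is 2.14-fold lower in MEL (limma, adjusted p = 3.78e-05). E2f6, the repressor that acts without pocket proteins, read 9.70 and 9.82 in MEL cultures, against 9.55 and 9.56 in ES-EP cultures. The MEL values of E2f6 lay above those of ES-EP, yet the difference of 0.21 (95% interval 0.0049 to 0.41) did not pass after adjustment (limma, adjusted p = 0.0750). After quantile normalization it was 0.32 and passed (limma, adjusted p = 0.00895).

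The atypical E2F factors, which dampen E2F activity late in S phase and are themselves induced by E2F, were 1 lower gene and 1 that did not pass. E2f8 read 9.16 and 9.31 in MEL cultures, against 10.23 and 10.27 in ES-EP cultures. Its difference was -1.01 ± 0.091 (SE, 95% interval -1.23 to -0.80), or 2.02-fold lower in MEL (limma, adjusted p = 8.50e-05). E2f7 read 8.17 and 8.32 in MEL cultures, against 8.001 and 8.07 in ES-EP cultures, with MEL above and no overlap. The E2f7 difference of 0.21 (95% interval -0.0020 to 0.43) did not pass as deposited (limma, adjusted p = 0.0828), and after cyclic loess it was 0.28 and passed (limma, adjusted p = 0.0258). Of this pair, E2f8 holds CHR letters 15 bases before its start and E2f7 holds E2F letters further upstream, as printed above.

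Among the pocket proteins, Rb1 and Rbl2 were lower in MEL and Rbl1 did not pass. Rb1, which encodes the retinoblastoma protein and binds the activator E2F factors, read 9.88 and 10.08 in MEL cultures, against 10.58 and 10.63 in ES-EP cultures. The fall of Rb1 was 0.62 ± 0.096 on the log2 scale (SE), or 1.54-fold, with an interval of -0.85 to -0.39 for the difference (limma, adjusted p = 0.00134). Rbl2, which encodes p130, the pocket protein of resting cells, read 8.07 and 8.11 in MEL, against 8.65 and 8.62 in ES-EP, with the tightest duplicates of the pocket genes in MEL. Its difference was -0.54 ± 0.081 (95% interval -0.73 to -0.35), 1.46-fold lower (limma, adjusted p = 0.00109). Rbl1, which encodes p107, the pocket protein most abundant in dividing cells and a known E2F target, read 9.70 and 9.88 in MEL, against 10.01 and 10.02 in ES-EP. Its MEL values lay below those of ES-EP, but the difference of -0.22 (95% interval -0.44 to -0.0040) did not pass (limma, adjusted p = 0.0764), and relative to all genes it was -0.083.

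**Figure D2:**
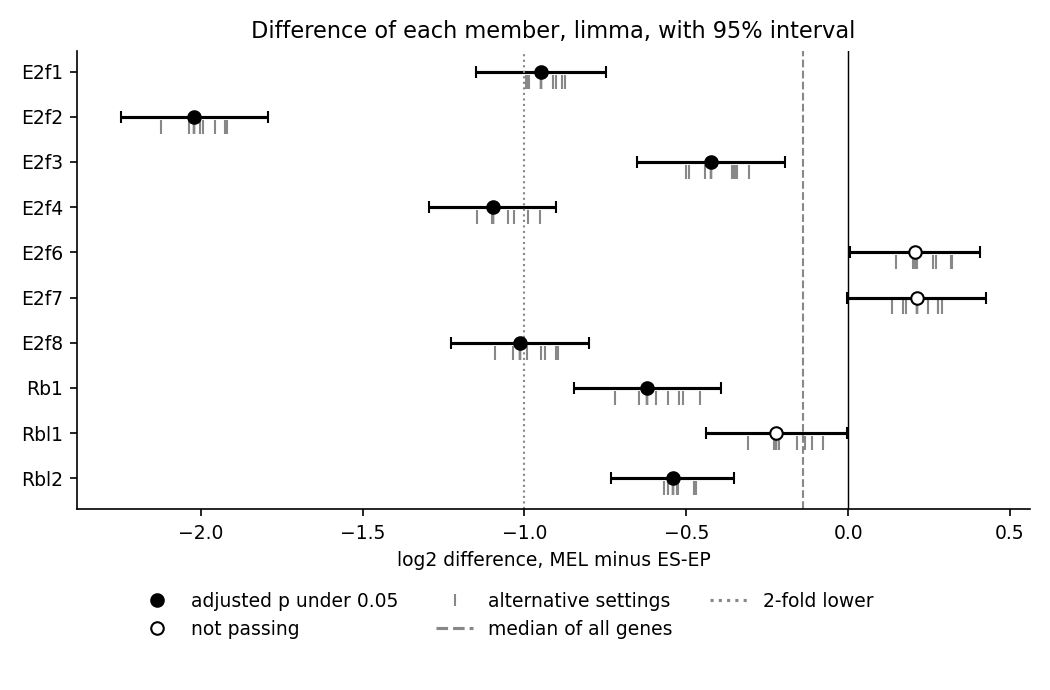
Difference of each member (log2, MEL minus ES-EP, horizontal axis) with its 95% interval from limma, filled where the adjusted p was under 0.05, and grey ticks under each for the 16 alternative settings. The dashed line is the median of all genes at -0.14 and the dotted line a 2-fold fall, and E2f2 at -2.02 stands to the left of E2f4 at -1.10, E2f8 at -1.01 and E2f1 at -0.95.

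The size of the differences varied within each class of the family. The log2 ratio of 2 members on the same array has no meaning of its own, since features differ in brightness, but its change between lines does not depend on array scaling by a constant. Over 8 such pairs, the ratio of E2f2 to E2f3 changed by -1.60 in MEL relative to ES-EP, that of E2f2 to E2f1 by -1.07 and that of E2f1 to E2f3 by -0.53. The repressor pair of E2f4 to E2f6 changed by -1.30 and the atypical pair of E2f8 to E2f7 by -1.23. Among pocket proteins Rb1 to Rbl1 changed by -0.40 and Rbl2 to Rbl1 by -0.32, while Rb1 to Rbl2 changed by -0.08. In 7 of these pairs the 2 MEL arrays did not overlap the 2 ES-EP arrays, and the 2 lines overlapped only for Rb1 to Rbl2. Of all single genes, 80.2% also had groups that did not overlap, so that count says little about these pairs. An exact two-sided permutation test of 2 arrays against 2 has 3 splits and cannot give a p under 0.333, the value of those 7 pairs, and it gave 0.667 for Rb1 to Rbl2 (Benjamini-Hochberg 0.381 and 0.667 over 8 pairs).

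The DNA-binding partners of the E2F factors were lower to a small extent, and the MuvB and DREAM proteins were mixed. Of 12 genes on this list 2 were higher, 5 lower and 5 did not pass, beside 21.8% of all genes higher and 36.9% lower. The median was 0.07, or 0.21 relative to all genes, and became -0.065 after quantile normalization. Tfdp1, the main DP partner, read 10.56 and 10.63 in MEL, against 10.88 and 10.92 in ES-EP, a difference of -0.31 (limma, adjusted p = 0.0161) that did not pass after any of the 3 rescalings nor without either ES-EP culture (adjusted p = 0.0784 without A). Tfdp2 fell by 0.49 on the log2 scale (limma, adjusted p = 0.00236). Lin37, a MuvB subunit needed for repression by DREAM, was higher, at 9.17 and 9.12 in MEL against 7.85 and 7.82 in ES-EP, a difference of 1.31 (limma, adjusted p = 1.40e-05). Lin52, the MuvB subunit that contacts the pocket protein, was lower by -0.92 (limma, adjusted p = 0.000204), and its second feature differed by -0.90.

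The genes of the factors that take over MuvB for activation parted. Mybl2, which encodes B-Myb and is a classical E2F target, read 8.99 and 9.18 in MEL, against 10.50 and 10.49 in ES-EP, a difference of -1.41, or 2.65-fold lower (limma, adjusted p = 2.13e-05). Foxm1, which drives G2 and mitosis genes, read 9.17 and 9.27 in MEL, against 8.63 and 8.60 in ES-EP, a difference of 0.60 (limma, adjusted p = 0.000805). So Mybl2 fell with E2f2 and Foxm1 rose. E2f5, the close relative of E2f4, differed by 0.08 with an interval of -0.15 to 0.31 and did not pass (limma, adjusted p = 0.494), and its sign turned after quantile normalization (-0.071).

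Of 17 cyclins, kinases and activators acting on pocket proteins, 10 were lower in MEL, 0 higher and 7 did not pass. Over all genes 36.9% were lower and 21.8% higher. The list median was -0.36, or -0.22 relative to all genes. Cdc25a, the phosphatase that frees Cdk2 and a known E2F target, had the largest fall, at 9.70 and 9.81 in MEL against 11.00 and 11.02 in ES-EP, 2.39-fold lower (limma, adjusted p = 2.15e-05). Among the D cyclins, which start the phosphorylation of pocket proteins, Ccnd3 was lower by -0.85 (limma, adjusted p = 0.000173). Ccnd3 is the D cyclin known to set division number in mouse erythroid precursors. Ccnd2 was lower by -0.38 (limma, adjusted p = 0.00613), and Ccnd1 read 5.45 and 5.62 in MEL, against 5.46 and 5.59 in ES-EP, near the array medians, with an interval of the difference of -0.23 to 0.24.

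Their kinases did not all pass. Cdk4 read 12.13 and 12.17 in MEL, against 12.11 and 12.10 in ES-EP, and the interval of its difference ran from -0.14 to 0.23 (limma, adjusted p = 0.652). Cdk6 was lower by -0.31 (limma, adjusted p = 0.0250), a call lost under all 3 rescalings (-0.17 and adjusted p = 0.0942 with quantile normalization) and without MEL culture A or either ES-EP culture. Of the cyclins that act with Cdk2, Ccne1 differed by 0.04 (interval -0.15 to 0.23), Ccne2 fell by 0.71 on the log2 scale (limma, adjusted p = 0.00104), and Ccna2 fell by 0.39 on that scale (limma, adjusted p = 0.00509). Cdk2 itself, which completes pocket protein phosphorylation, fell by 0.76 on the log2 scale (limma, adjusted p = 0.000205).

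The CDK inhibitors moved in opposite directions. Of 6 measured genes 1 was higher, 4 lower and 1 did not pass, beside 21.8% of all genes higher and 36.9% lower, and Cdkn1a was not analysed here. Their median was -0.30, or -0.16 relative to all genes. Cdkn2d, which encodes p19 of the INK4 family, read 9.65 and 9.57 in MEL, against 8.29 and 8.29 in ES-EP, a difference of 1.32 (limma, adjusted p = 1.38e-05). Cdkn2b, which encodes p15, read 6.95 and 6.92 in MEL, against 9.23 and 9.06 in ES-EP, 4.63-fold lower (limma, adjusted p = 1.92e-06). Cdkn2c, which encodes p18, fell by 0.65 on the log2 scale (limma, adjusted p = 0.000918). Cdkn1b, which encodes p27 and accumulates as erythroid cells leave the cycle, was lower by -0.22 in its brighter feature (limma, adjusted p = 0.0473), a call kept in 6 of 16 alternatives. It was lost under all 3 rescalings and treat, with control features included (adjusted p = 0.0683), with the replicate block (adjusted p = 0.0558) and without any 1 of the 4 cultures (adjusted p = 0.0667 to 0.214). Its dimmer feature was lower by -1.02, so the size of the difference is not settled.

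Among the proteins that pocket proteins recruit to close chromatin, more genes were higher than lower in MEL. Of 18 measured corepressor genes 9 were higher in MEL, 2 lower and 7 did not pass, beside 21.8% of all genes higher and 36.9% lower. Their median was 0.23, or 0.37 relative to all genes. Without features under the median signal, 34.7% of the remaining genes were higher and 37.1% lower. Suv39h1, Rbbp8 and Phb were not analysed here. Kmt5c, a histone H4 lysine 20 methyltransferase that binds RB, read 10.92 and 10.94 in MEL, against 8.52 and 8.60 in ES-EP, a difference of 2.37 (limma, adjusted p = 8.65e-07). Ctbp2, a corepressor, was higher by 1.27 (limma, adjusted p = 0.000105). The lower ones were Cbx5, the heterochromatin protein HP1 alpha, by -0.70 (limma, adjusted p = 0.000371), and Kmt5b, the sister enzyme of Kmt5c, by -0.33 (limma, adjusted p = 0.0171), a call lost after centring and without either ES-EP culture.

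Known S phase targets of E2F were mostly lower in MEL. Of 53 measured genes 43 were lower, 2 were higher and 8 did not pass, and 13 were at least 2-fold lower with 0 at least 2-fold higher, beside the all-gene shares of 36.9% and 4.93% for lower. The median difference was -0.74, or -0.60 relative to all genes. Rrm2, the ribonucleotide reductase subunit that limits the supply of deoxynucleotides, read 10.01 and 10.26 in MEL, against 12.30 and 12.33 in ES-EP, a difference of -2.18 (limma, adjusted p = 3.66e-06). Cdt1, which licenses replication origins, read 9.08 and 9.24 in MEL, against 11.14 and 11.14 in ES-EP, a difference of -1.98 (limma, adjusted p = 2.89e-06). The 2 higher genes were Dnmt1, the maintenance DNA methyltransferase, by 0.39 (limma, adjusted p = 0.00610), and Rpa3, the small subunit of the single-strand binding protein, by 0.35 (limma, adjusted p = 0.00826), a call lost without ES-EP culture A.

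The genes of G2 and mitosis that MuvB, B-Myb and FoxM1 switch on were not lower as a group. Ccnb1 was not analysed here. Of 29 measured genes 7 were higher, 6 lower and 16 did not pass, beside 21.8% of all genes higher and 36.9% lower. Their median was -0.0084, or 0.13 relative to all genes, and its sign turned with quantile normalization (0.14), centring (0.056) and cyclic loess (0.10). Cenpa, the centromeric histone, read 11.13 and 11.18 in MEL, against 10.24 and 10.25 in ES-EP, a difference of 0.91 (limma, adjusted p = 8.43e-05). Anln, which encodes the cytokinesis protein anillin, was higher by 0.70 (limma, adjusted p = 0.000420). Birc5, which encodes survivin, was lower by -1.05 (limma, adjusted p = 3.90e-05) and Prc1, a spindle midzone protein, by -0.40 (limma, adjusted p = 0.00491). The difference between the S phase and the mitotic list was not tested.

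**Figure D3:**
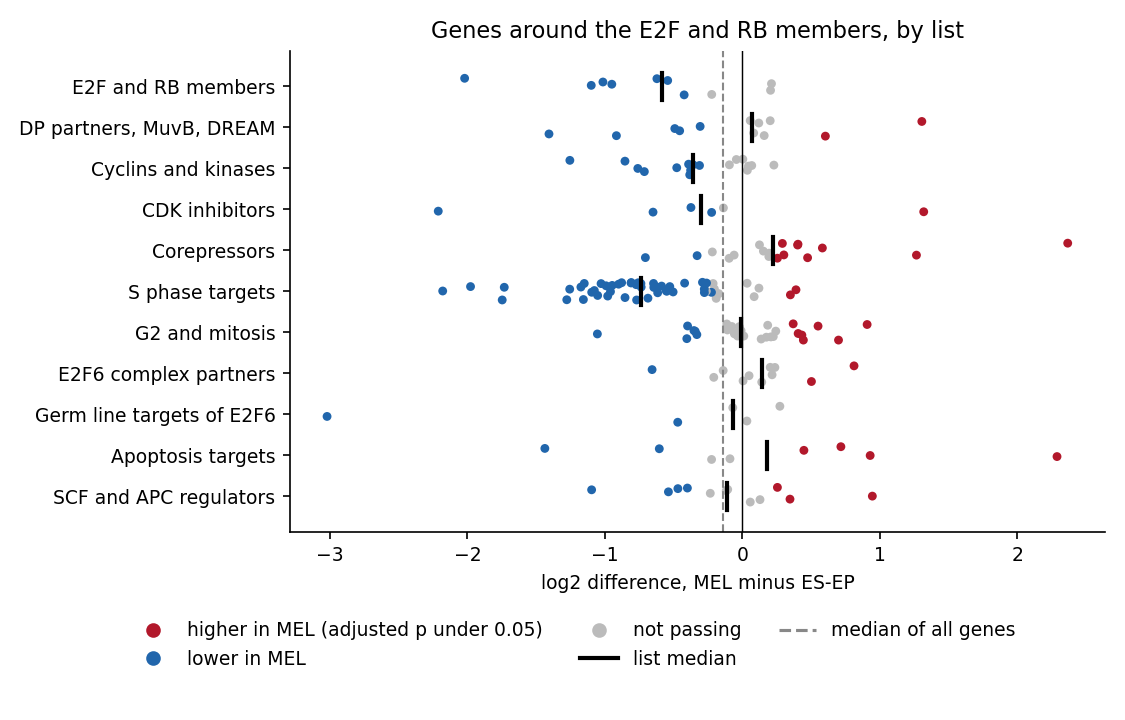
Difference of each measured gene (log2, MEL minus ES-EP, horizontal axis) in the family and the lists around it, red (higher in MEL) or blue (lower) where the adjusted p was under 0.05 and grey otherwise, with a black bar for each list's median and a dashed line for the median of all genes at -0.14. The S phase list has its median at -0.74 and most of its points blue, while the G2 and mitosis list spreads on both sides of 0.

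The promoter letters were spread differently over the S phase and the mitotic list, which was not tested. Both lists were chosen as known targets, of E2F and of MuvB, so the shares are no separate evidence of that regulation. Of 52 windows of the S phase list 19 held E2F letters, or 36.5%, and 15.4% held CHR letters. Of 26 windows of the G2 and mitosis list 0 held E2F letters and 73.1% held CHR letters. The family had 40% for each kind of letter over 10 windows, and the E2f3 window printed above held both.

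**Figure D4:**
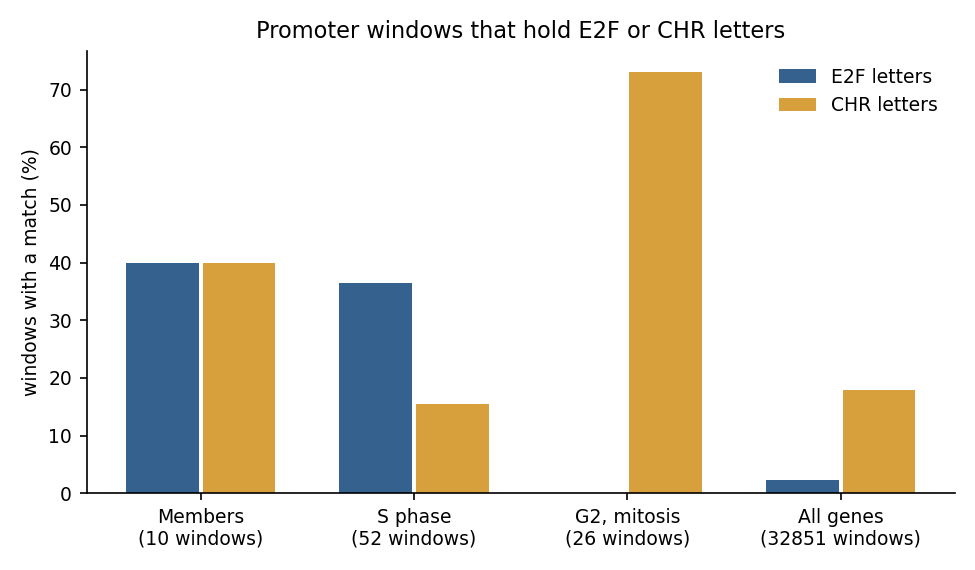
Share of promoter windows (%, vertical axis) that hold E2F letters (blue) or CHR letters (yellow) in the members, the S phase list, the G2 and mitosis list and all genes. The members show 40% for both, the S phase list 36.5% for E2F letters, the mitotic list 73.1% for CHR letters, and all windows 2.26% and 17.9%. The S phase and mitotic lists were chosen as known targets of E2F and of MuvB.

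The partners of E2F6 in the polycomb complex PRC1.6 mostly did not pass. The list median was 0.14, or 0.28 relative to all genes. Of 11 genes 2 were higher, 1 lower and 8 did not pass, where 21.8% of all genes were higher and 36.9% lower. Over the alternatives 0 to 5 of the 11 genes passed as higher and 0 to 2 as lower. Yaf2, a RING-binding subunit, was higher by 0.81 (limma, adjusted p = 0.000264), and Wdr5, an adaptor of chromatin complexes, by 0.50 (limma, adjusted p = 0.00245). Pcgf6, the defining subunit, differed by 0.14 (interval -0.10 to 0.39) and L3mbtl2 by 0.05 (interval -0.16 to 0.26), and neither passed (limma, adjusted p = 0.278 and 0.665). Rybp, a relative of Yaf2, was lower by -0.66 in its brighter feature (limma, adjusted p = 0.00746) and by -3.76 in its dimmer one, so its features disagree in size. Germ line genes that E2F6 is known to silence in other mouse cells were mostly dim: 2 of 5 were lower, 0 higher and 3 did not pass. Stag3, a meiotic cohesin subunit, read 4.56 and 4.51 in MEL, against 7.57 and 7.55 in ES-EP, a difference of -3.02 (limma, adjusted p = 2.86e-07), and Tuba3a, a testis tubulin, was lower by -0.47 (limma, adjusted p = 0.00385).

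Known apoptosis targets of E2F1 went both ways. Of 8 measured genes 4 were higher, 2 lower and 2 did not pass, beside 21.8% of all genes higher and 36.9% lower. Their median was 0.18, or 0.32 relative to all genes. Pmaip1, which encodes the BH3 protein NOXA, read 7.68 and 7.72 in MEL, against 5.42 and 5.40 in ES-EP, a difference of 2.29 (limma, adjusted p = 9.12e-07). Bcl2l11, which encodes BIM, was higher by 0.93 (limma, adjusted p = 0.000476). Bbc3, which encodes PUMA, was lower by -1.44 (limma, adjusted p = 6.73e-05), and Trp73, the p53 relative that E2F1 is known to induce, by -0.60 (limma, adjusted p = 0.000755). Trp73 was near the array medians, at 5.57 and 5.52 in MEL, against 6.19 and 6.12 in ES-EP.

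Among 12 ubiquitin ligase genes that time the switch into S phase, 3 were higher, 4 lower and 5 did not pass. These counts lay near the all-gene shares of 21.8% higher and 36.9% lower. The list median was -0.11, or 0.028 relative to all genes. Skp2, the SCF subunit that targets p27, read 9.52 and 9.62 in MEL, against 8.57 and 8.68 in ES-EP, a difference of 0.95 (limma, adjusted p = 0.000110). Its cofactor Cks1b was higher by 0.35 (limma, adjusted p = 0.00895), a call lost without ES-EP culture B. Cul1, the SCF scaffold, was lower by -1.10 (limma, adjusted p = 4.45e-05), and Fbxo5, the E2F-induced inhibitor of the anaphase-promoting complex, by -0.54 (limma, adjusted p = 0.00131).

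The genes whose pattern over the 4 arrays came closest to that of a member were found by Euclidean distance between log2 values centred on each gene's mean. Closest to E2f2 were Osbpl1a at a distance of 0.020, Nop10 at 0.050 and Cdt1 at 0.062. Cdt1 is also on the S phase list. Closest to E2f7, the member with the largest positive difference, were Hmmr at 0.013, Olfr1118 at 0.015 and Man2a1 at 0.020, and none of these 3 passed (limma, adjusted p = 0.0841, 0.103 and 0.0870). The values of Hmmr were 10.37 and 10.51 in MEL, against 10.19 and 10.27 in ES-EP. Olfr1118 was dim, at 3.78 and 3.94 in MEL, against 3.62 and 3.70 in ES-EP, below every array's median. The distance over 4 arrays describes only these arrays.

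Other cell markers differed between the lines as well, where 36.9% of all genes were lower and 21.8% higher in MEL. Of 12 measured erythroid markers 10 were lower and 2, Gata1 and Epor, higher in MEL, with median levels of 10.74 and 10.79 on the MEL arrays, against 11.40 and 11.39 on the ES-EP arrays, and Slc4a1, the anion exchanger of red cells, had the widest gap, at 6.98 and 7.10 in MEL against 12.45 and 12.51 in ES-EP. Of 8 megakaryocyte markers 5 were higher and 1 lower in MEL, with median levels of 7.70 and 7.75 in MEL, against 5.83 and 6.21 in ES-EP. Their part in the differences of the E2F and pocket protein genes was not tested. Of the 9 mast cell and basophil markers 7 were lower and 0 higher in MEL. Ms4a2 had the widest gap of these, at 3.99 and 3.87 in MEL, against 7.48 and 7.43 in ES-EP. Median levels of this list were 4.10 and 3.88 in MEL, against 5.29 and 5.32 in ES-EP. Those of the myeloid, lymphoid and pluripotent stem cell lists lay between 4.42 and 5.09 in MEL and between 5.03 and 5.29 in ES-EP, below the array medians of 5.78 to 5.91. The stromal list lay at 6.27 and 6.18 in MEL, against 5.77 and 5.69 in ES-EP, and 2 of its 10 genes were higher and 5 lower. The table has no detection calls, so dim was not told from absent.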

How the data were processed

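The deposited values are log2 expression values that GeneSpring GX made by RMA, per the labels' descriptions, a method that corrects background, normalizes arrays and summarises probes. That they are log2 values was judged from their range. Which arrays RMA took in together, with what filters and software version, are details not given in the sources used here. The table has 35557 features, of which 6613 control features were left out. Features were named through the platform annotation and a RefSeq gene table (21698 matched), with 21789 of the tested features having 1 symbol, 1621 several and 5534 none. The brightest feature with 1 symbol stood for a gene.

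MEL was compared with ES-EP with lmFit and eBayes of limma 3.58.1 in R 4.3.3 on all 28944 features, with 2 residual and 5.15 prior degrees of freedom and Benjamini-Hochberg adjustment. SEs and 95% intervals come from that fit, and SDs from 2 cultures. Precision is limited by the number of arrays, 2 in each group. The procedure was also run on simulated data with independent noise drawn from the variance model of the fit. Such data cannot show how calls behave with correlated features or technical duplicates. The members and lists were chosen with earlier results of these data known. The lists hold 269 genes, 254 of them measured. Named were all members, the 2 passing genes with the largest rise and fall of each pathway list, 19 genes fixed by role, and the 3 genes nearest to each of 2 members. Lists are described by counts and medians beside all genes. Alternatives were 3 rescalings, 2 priors, 2 filters on dim features, features with 1 symbol, control features included, the mean of a gene's features, the replicate letter as a block, a test against 1.5-fold (treat), and each culture left out in turn. Results split by promoter letters were added after the data were seen.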

Additional observations from a re-analysis of the deposited data

How the results depend on the processing

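Under 16 alternatives no member changed direction, and E2f1, E2f2, E2f4 and E2f8 passed as lower in all of them, with E2f2 between -2.12 and -1.92. The members passing higher went to 1 after quantile normalization, with an intensity trend and without features under the median signal (E2f6 each time), and to 2 after cyclic loess (E2f6 and E2f7). The members passing lower became 8 with an intensity trend, where Rbl1 was added (limma, adjusted p = 0.0170). They became 4 with treat against 1.5-fold, without E2f3, Rb1 and Rbl2. E2f3 and Rbl2 lay inside that bound, at 1.34-fold and 1.46-fold. Rb1, at 1.54-fold, lay just beyond the bound and was not told apart from it. The members at least 2-fold lower became 1 with quantile normalization (E2f4 at -0.95, E2f8 at -0.90) and 1 with cyclic loess (-0.99 and -0.90). They became 2 after centring, where E2f8 was at -0.95. Without MEL culture A the difference of E2f8 was -0.94, also short of 2-fold. Leaving out 1 culture gave 0 to 2 members higher (2 without MEL culture A), and Rbl1 passed as lower without MEL culture B (limma, adjusted p = 0.0292). With the replicate block there were 0 higher and 7 lower members, 3 of them 2-fold. The A minus B differences of the 2 lines correlated at 0.11 across features, 2 pairs cannot show that the letters pair the cultures, and the block changed no member's call, though Cdkn1b lost its call under it (limma, adjusted p = 0.0558). Centring gave a prior without limit, so its p-values are not printed, and calls kept or lost after centring carry that limit.

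List medians reversed sign in the DREAM list (-0.065 after quantile normalization, -0.084 without MEL culture B), the mitotic list (0.14 after quantile normalization, 0.056 after centring, 0.10 after cyclic loess, and -0.032 to 0.037 when a culture was left out), the germ line list (0.14 and 0.13 after quantile normalization and cyclic loess), the SCF list (0.013 after quantile normalization) and, after cyclic loess, all genes with E2F letters (0.0090) and without (0.020). Single genes reversed without passing: E2f5 (-0.071 after quantile normalization, and -0.0067 to 0.17 when a culture was left out), Ccnd1 (-0.081 to 0.089 likewise) and L3mbtl2 (-0.016 to 0.12 likewise). The cause was not tested. S phase genes passing lower ranged from 18 (treat) to 47, mitotic genes passing higher from 1 to 13 and lower from 1 to 7, and corepressors passing higher from 2 to 12. Of 844 further results for 53 other named genes, 777 kept direction and call, 51 lost the call (under treat, the rescalings, control features, the block or a left-out culture), 10 gained it and 6 reversed.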

Other observations

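The shares of lower genes with and without E2F letters lay close together. Over all measured genes with a promoter window, 543 held E2F letters and 15071 did not. Of those with the letters 39.2% were lower and 25.4% higher in MEL, and of those without 36.6% and 22.5%, with medians of -0.13 in both. Within the S phase list 15 of 19 genes with E2F letters were lower, with a median of -0.74, and 21 of 25 without them, with a median of -0.62. Within the G2 and mitosis list, of 18 genes with CHR letters 5 were higher and 3 lower (median 0.098), and of 7 without 1 was higher and 2 lower (median -0.022). These splits were made after the data were seen and carry no test.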
